A study of Mus musculus with 18 samples.

Results

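The patterning factors of the neural tube are transcription factors that divide the early spinal cord and hindbrain into progenitor domains. Of them, 8 genes were followed here: Irx3, Olig2, Olig3, Pax3, Pax6, Zic1, Zic2 and Nkx6-1. Members were the probe sets whose annotation gives these symbols, 15 of the 45101 probe sets on the array and 8 of 18194 genes. No cut on a measured value defined them, but they were picked by symbol with the signals and group differences of these same arrays in view, among them the levels at 72 h of RA. Their p-values below, although adjusted over every gene tested, are therefore no independent support for the changes they describe.

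All samples were AB1, a mouse embryonic stem (ES) cell line, either wild type (WT) or with both copies of Cyp26a1 disrupted, called knockout (KO) below. Cyp26a1 encodes the cytochrome P450 that degrades retinoic acid (RA). Per genotype, 3 arrays held untreated controls at 8 h, 3 held cells after 8 h and 2 held cells after 72 h in 100 nM RA. The labels place all of these in medium with leukemia inhibitory factor (LIF), which keeps mouse ES cells from differentiating. A further control array per genotype, also at 8 h, was labelled as without LIF. The labels list no untreated group at 72 h, so 72 h of RA and 72 h of culture cannot be told apart. They also do not say whether repeats were separate cultures, and the p-values measure the spread between these arrays, which may be technical.

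In the embryo a ventral source of Sonic hedgehog and a dorsal source of bone morphogenetic proteins and Wnt proteins give cells of the neural tube their position, while RA from the somites acts along the trunk. Nkx6-1 and Olig2 belong to ventral progenitors, and Olig2 specifies the motor neuron domain. Pax6 and Irx3 span intermediate progenitors, where Irx3 and Olig2 repress one another at a domain boundary. Olig3 marks dorsal progenitors, and Pax3, Zic1 and Zic2 act in the dorsal tube and neural crest. RA is commonly used to drive ES cells toward spinal cord fates, and in that setting it induces several of these genes, Pax6, Irx3 and Olig2 among them.

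The RefSeq promoter table (assembly GRCm38.p6) held windows for 6 of the 8 genes. The 250 bases before the annotated start are printed for the pair whose levels separated the genotypes, Irx3 and Olig3. Capitals mark matches, on either strand, to an RA receptor half-site (the letters AGGTCA, also with the variant forms AGTTCA, then GGGTCA, and finally GGTTCA), to direct repeats of these with 1, 2 or 5 bases between them, to the GLI site GACCACCCA, to the TATA box letters TATAAA, to the CCAAT box and to the GC box letters GGGCGG. The Irx3 window lies at chr8:91801655-91801904 on the minus strand and the Olig3 window at chr10:19356289-19356538 on the plus strand.
Irx3: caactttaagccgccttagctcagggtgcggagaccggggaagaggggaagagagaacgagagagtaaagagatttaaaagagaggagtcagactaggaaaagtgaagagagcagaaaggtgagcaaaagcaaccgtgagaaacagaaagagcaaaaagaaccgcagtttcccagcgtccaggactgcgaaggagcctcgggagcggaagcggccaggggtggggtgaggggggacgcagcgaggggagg
Olig3: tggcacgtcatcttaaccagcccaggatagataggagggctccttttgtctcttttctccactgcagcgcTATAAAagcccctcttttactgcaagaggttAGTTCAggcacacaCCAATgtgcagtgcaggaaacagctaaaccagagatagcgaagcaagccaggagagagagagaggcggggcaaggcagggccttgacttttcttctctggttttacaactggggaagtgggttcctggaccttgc
The Olig3 window held AGTTCA 149 bases, TATAAA 180 bases and CCAAT 135 bases before the start, and no match overlapped another. None of the letters searched occurred in the Irx3 window. Of 32851 promoter windows of the same length, 38.6% held a half-site, 12.4% TATAAA and 33.8% CCAAT. The GC box occurred in 32.7% of the windows and the GLI site in 0.225%. Direct repeats with a spacer of 1, 2 or 5 bases occurred in 0.164%, 0.174% and 0.0883%. The GC content was 56.0% in the Irx3 window and 51.6% in the Olig3 window, against a median of 52.4% over all windows. CG pairs numbered 13 and 4, against a median of 6. These matches describe the letters only, and no array measures binding.

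Values below are signal units of the deposited MAS5 table, in which each array had a trimmed mean of 500 and a median between 54.4 and 75.6. On each array 41.6% to 48.3% of probe sets read under 50 units, and such values were set to 50 before log2 was taken. A gene was tested when at least 2 of the 16 arrays of the replicated groups reached 100 units, which 11388 genes did. LIF labels need care in replicate 1: Socs3, a direct target of LIF signalling, read 367.5 units (WT) and 215.3 units (KO) on the control arrays labelled with LIF, against 3800 and 4551 on those labelled without it. The other 14 arrays, all labelled with LIF, read 2628 to 6001 units. Results that change when these labels are exchanged, or when the replicate-1 controls are left out, are given with those values. The Cyp26a1 probe set read 2873 and 3075 units in KO cells after 72 h of RA, so it cannot check the disruption. After 8 h of RA it read 192.6 to 216.2 units in KO and 636.6 to 1695 units in WT cells. What that difference reflects was not tested. Of 7 ES cell markers, 6 stood above 50 units on all 18 arrays, and Dppa3 read under 50 on 1 array, a KO control (30.41 units).

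Most of the 8 factors were dim in all conditions. Of their 15 probe sets, 10 never reached 100 units and 5 never reached 50, while among the 34958 probe sets with a single gene symbol 13366 never reached 100 and 6038 never reached 50. Only Irx3, Olig3 and Pax6 were bright enough to be tested, 3 of 8 (37.5%) against 62.59% of all genes. Irx3 passed the filter through its 72 h arrays and a WT control at 101.1 units, and Olig3 only through the KO arrays at 72 h, so a share of changed genes among those tested says little of the 8. A signal under the floor does not show that a transcript is absent.

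**Figure D1:**
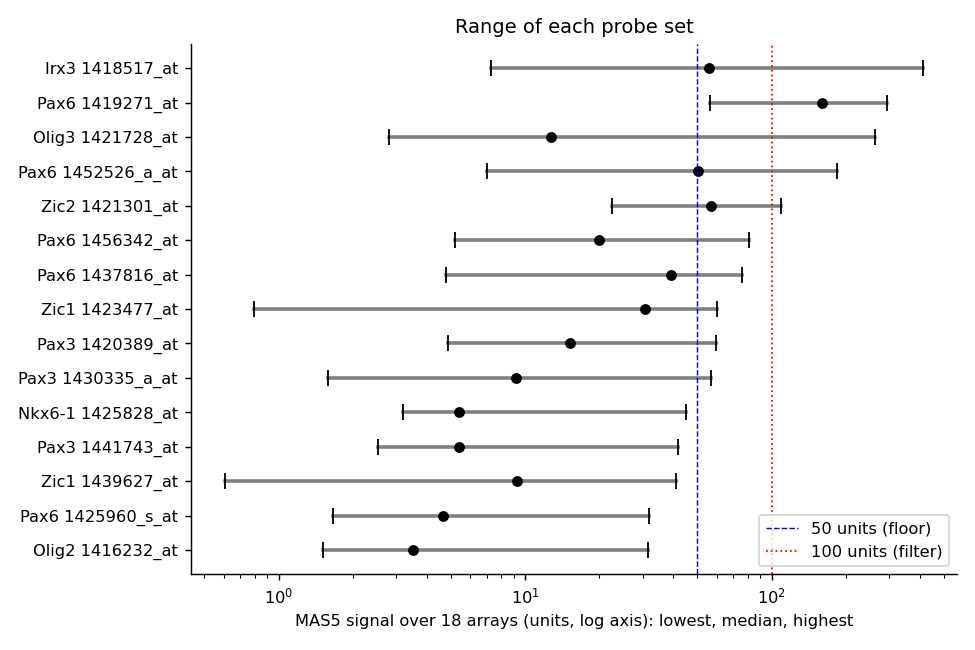
Lowest, median and highest MAS5 signal (units, log axis) of each of the 15 probe sets over 18 arrays, with lines at 50 and 100 units. Irx3 reaches 410.2 units, the brightest Pax6 probe set 292.9 and Olig3 262.5, while Olig2 and Nkx6-1 end below 50.

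Of the ventral factors, Nkx6-1 ranged from 3.188 to 44.9 units with a median of 5.396. Olig2 ranged from 1.517 to 31.58 units with a median of 3.516. Both stayed under 50 units on all 18 arrays, the 72 h RA arrays included, where Olig2 read 16.1 and 3.127 units in WT and 1.517 and 5.289 in KO cells. The highest Nkx6-1 value, 44.9 units, came from 1 of the 2 WT arrays at 72 h, and the other read 3.188. A rise of the motor neuron and ventral progenitor factors was thus not detectable at this signal.

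Irx3, the Iroquois homeobox factor of intermediate and dorsal progenitors, was the member with the highest rise in WT cells. The WT controls read 101.1, 65.53 and 28.61 units, and the WT array without LIF read 22.13. After 8 h of RA the WT arrays read 42.21, 68.96 and 23.65 units, and after 72 h they read 410.2 and 407.9. In WT cells the 72 h arrays thus stood above every other array, while those at 8 h overlapped the controls. The KO controls read 77.93, 30.13 and 19.11 units, and the KO array without LIF read 7.305. With RA the KO arrays read 43.22, 60.11 and 51.83 units at 8 h and 183.6 and 109.2 units at 72 h. Both KO arrays at 72 h lay above the other KO arrays and below both WT arrays of that time.

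By group mean, Irx3 stood at 409 ± 1.62 units (SD, n = 2) in WT cells and 146.4 ± 52.6 units (n = 2) in KO cells after 72 h. WT controls came next at 65.09 ± 36.3 units (n = 3), and then KO cells after 8 h of RA at 51.72 ± 8.45 (n = 3), WT cells after 8 h at 44.94 ± 22.8 (n = 3) and KO controls at 42.39 ± 31.3 (n = 3). Those last 4 groups overlapped one another and have no order beyond their spread. RA for 72 h was associated with a 5.91-fold higher Irx3 in WT cells (log2 difference 2.56 ± 0.32, standard error, limma adjusted p = 4.25e-05). In KO cells the difference was 2.44-fold (1.29 ± 0.32, adjusted p = 0.00962). Against 8 h of RA the differences were 2.88 ± 0.32 in WT (adjusted p = 2.08e-05) and 1.40 ± 0.32 in KO cells (adjusted p = 0.00733). Because some arrays were set to the floor of 50, these folds understate the change and their errors leave out part of the spread. Without replicate 1 of the KO 72 h group the KO rise was 0.91 with adjusted p = 0.148, while the WT rise was called under all 27 alternatives run, with values from 2.03 to 2.90.

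Olig3, a basic helix-loop-helix factor of dorsal progenitors, was the member with the highest rise in KO cells. The WT controls read 46.89, 10.4 and 8.619 units, and 8 h of RA gave 14.06, 6.975 and 10.7. After 72 h the WT arrays read 80.68 and 83.05 units. In KO cells the controls read 2.797, 59.74 and 13.16 units, 8 h of RA gave 9.438, 12.43 and 5.624, and 72 h gave 262.5 and 247.8. The arrays without LIF read 13.73 (WT) and 11.94 (KO) units. The KO arrays at 72 h were the only ones of the 18 to reach 100 units, and the WT arrays at 72 h lay above all arrays of the earlier groups. All WT arrays before 72 h lay under the floor, as did all KO arrays but 1 control.

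The group means of Olig3 at 72 h were 255.2 ± 10.4 units in KO cells (SD, n = 2) and 81.86 ± 1.67 units in WT cells (n = 2), with every earlier group mean between 9.166 and 25.23 units. The order of those earlier groups cannot be read, since their arrays overlap and nearly all are under 50. In KO cells Olig3 was 4.81-fold higher at 72 h than in controls on the floored scale (2.27 ± 0.20, limma adjusted p = 1.78e-06). This difference was called under all 25 alternatives in which the gene could be tested. Without either KO array at 72 h Olig3 fell below the filter, so those fits could not cost it the call. Against 8 h of RA it was at least 5.1-fold higher (2.35 ± 0.20, adjusted p = 3.01e-06). In WT cells the difference from the controls, all at the floor, was at least 1.64-fold (0.71 ± 0.20, adjusted p = 0.0181). The WT call was lost with a floor of 100 units, where both groups lie at the floor, and with quantile normalization (0.49, adjusted p = 0.113). It was also lost with a filter of 200 units (adjusted p = 0.0526) and without the replicate-1 controls (adjusted p = 0.0503). Without either WT array at 72 h, where the difference was 0.69 or 0.73, it was lost as well. These losses do not rank the WT call against the KO call.

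**Figure D2:**
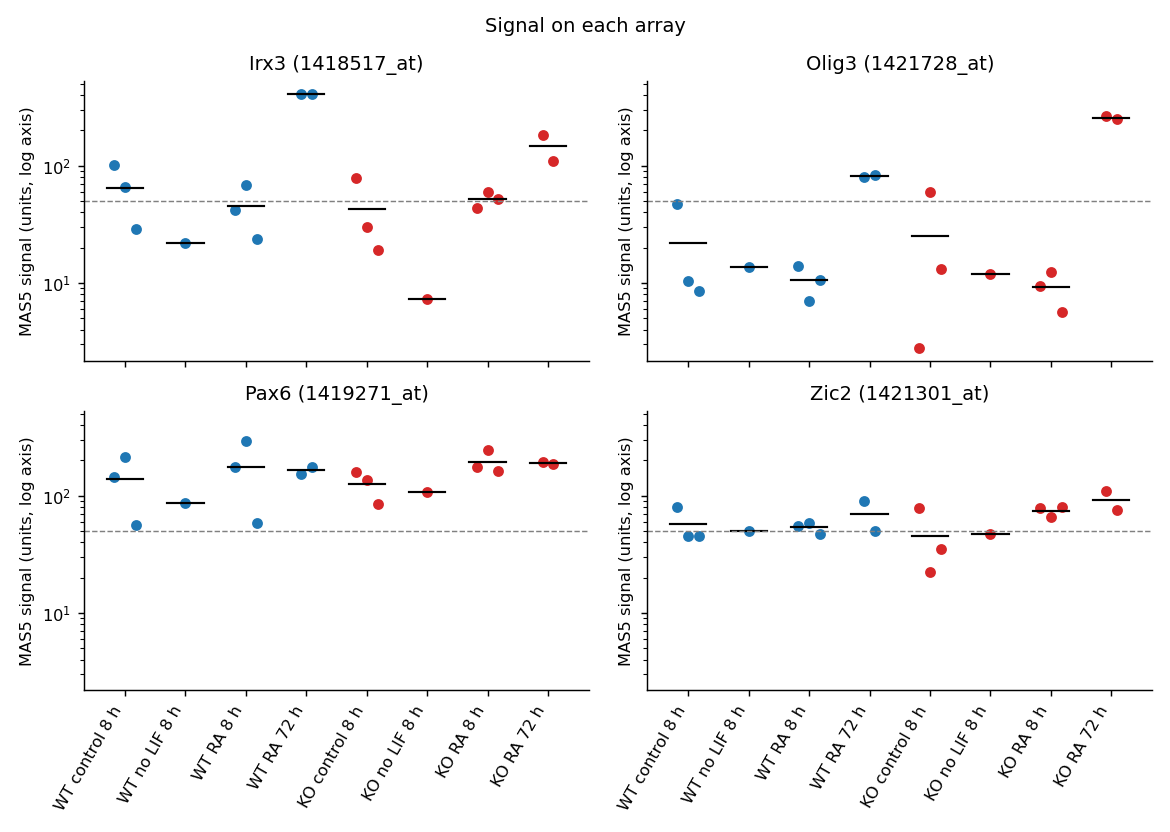
MAS5 signal (units, log axis) of Irx3, Olig3, Pax6 and Zic2 on each of 18 arrays, WT in blue and KO in red, with the group mean as a black line and the floor of 50 units dashed. At 72 h Irx3 is higher in WT (410.2 and 407.9) than in KO cells (183.6 and 109.2), and Olig3 is higher in KO (262.5 and 247.8) than in WT cells (80.68 and 83.05).

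Pax6, the paired and homeodomain factor of intermediate progenitors, was read by 5 probe sets. The brightest of them read above the floor on all 18 arrays and stood for the gene in the test. It read 142.6, 212.5 and 56.21 units in WT controls, 174.6, 292.9 and 58.34 after 8 h of RA, and 151.4 and 176.1 after 72 h. The KO arrays read 158.8, 134.8 and 84.56 units in controls, 173.8, 242.7 and 161.3 at 8 h, and 191.4 and 184.3 at 72 h. Without LIF the WT array read 85.95 and the KO array 108 units. The KO arrays with RA, at 8 h and at 72 h, lay above the 3 KO controls, and at 72 h both KO arrays lay above both WT arrays. The WT groups with LIF overlapped one another.

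No Pax6 difference passed the test. The 72 h difference was 0.45 ± 0.57 in WT cells (limma adjusted p = 0.618, 95% interval -0.82 to 1.73). In KO cells it was 0.62 ± 0.57 (adjusted p = 0.487, interval -0.65 to 1.90). Both intervals reach changes well over 1 log2 unit. Replicate 3, the lowest control in each genotype (56.21 units in WT and 84.56 in KO cells), has no array at 72 h. Adding replicate number to the fit as a block gave smaller 72 h differences. They were 0.06 ± 0.35 in WT (limma adjusted p = 0.918) and 0.23 ± 0.35 in KO cells (adjusted p = 0.655). On this probe set each array with 8 h of RA read above the control of the same number, in 6 of 6 pairs. With the same block, which the numbers bear out at 8 h, the 8 h difference was 0.27 ± 0.30 in WT (adjusted p = 0.82) and 0.64 ± 0.30 in KO cells (adjusted p = 0.373). The other 4 probe sets gave 3, 4, 5 and 3 of 6 pairs in that direction. They were dimmer, with highest values of 31.94, 75.84, 185.2 and 81.19 units, and 3 of them never reached 100. The arrays labelled without LIF gave a Pax6 difference of -0.32 ± 0.46 from the controls (adjusted p = 0.999). In that comparison limma called 0 of 10476 genes, and 285 had an unadjusted p under 0.05. It rests on the replicate-1 labels that Socs3 goes against. On the replicate-1 controls Pax6 read 142.6 (WT) and 158.8 (KO) units with the LIF label, against 85.95 and 108 without it. Exchanging these labels would turn the direction within replicate 1.

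The dorsal factors Zic1, Zic2 and Pax3 were below the filter. Zic2, a zinc finger factor of the dorsal tube, came closest to it, with 1 array at 100 units or more, and it ranged from 22.46 to 109.7 units with a median of 57.05. Its 72 h arrays read 90.43 and 49.98 units in WT and 109.7 and 74.57 in KO cells, against WT controls of 79.99, 45.21 and 45.55 and KO controls of 78.21, 22.46 and 35.26. The groups overlapped in WT, and in KO cells 1 control lay above the lower of the 72 h arrays. The 2 Zic1 probe sets had their highest values in WT cells at 72 h, 46.91 and 59.89 units on the brighter and 40.87 and 28.75 on the dimmer, where KO cells read 18.04 and 24.03, and 2.323 and 19.48. Both WT arrays at 72 h stood above all other arrays on both probe sets, at levels near or under the floor. With no filter on dim genes the Zic1 difference was 0.13 in WT (unadjusted p = 0.0285, adjusted p = 0.132). The 3 probe sets of Pax3, the dorsal and neural crest paired-box factor, peaked at 59.52, 56.58 and 41.59 units, none of these on a 72 h array.

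In counts, 2 of the 3 tested members, Irx3 and Olig3, rose at 72 h in WT cells, where 16.1% of all genes tested rose and 24.7% were called in either direction. The same pair rose in KO cells, where 14.8% rose and 23% were called. Against 8 h of RA the pair rose as well, beside 14.1% of all genes in WT and 12.7% in KO cells. After 8 h of RA limma called 0 of the 3 in either genotype, beside 0.904% of genes in WT and 0.957% in KO cells, and the smallest unadjusted p of a member was 0.232. The 8 h differences of Irx3 were -0.31 ± 0.29 in WT (95% interval -0.96 to 0.33) and -0.11 ± 0.29 in KO cells (interval -0.75 to 0.54).

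Other cell types' markers moved over the same 72 h. The summed signal of 7 extraembryonic endoderm markers was 3447 to 7446 units in WT controls and 19943 and 20661 at 72 h, and 2187 to 2482 in KO controls and 16254 and 15719 at 72 h. All 7 of these markers rose in both genotypes, and none lay under 50 units at 72 h. The summed signal of 5 neuron markers was 2159 to 9315 units in WT controls and 2945 and 4660 at 72 h, and in KO cells it was 5174 to 6757 in controls and lower, at 4372 and 4573, at 72 h. At that time Dcx, of young neurons, had a mean of 25.29 units in WT and 15.85 in KO cells. The 6 fibroblast markers summed to 127.2 to 185 units in WT controls and 253.8 and 1286 at 72 h, and to 51.67 to 204 units in KO controls and 117.7 and 151.2 at 72 h, and 0 of them was bright enough to be tested. In KO cells 5 of the 6 were under 50 units on both arrays. Irx3 read 410.2 and 407.9 units on these WT arrays in the same order. The 4 trophoblast markers on the array summed to 219 to 276.8 units in WT controls and 545.3 and 507.6 at 72 h, and to 145.4 to 298.1 units in KO controls and 206.8 and 165.3 at 72 h. Their part in the levels of Irx3 and Olig3 was not tested. In RNA from whole cultures, fewer cells expressing a gene and less of its RNA per cell cannot be told apart.

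Between genotypes the pair went opposite ways at 72 h. Irx3 was 2.89-fold lower in KO than in WT cells (-1.53 ± 0.35, limma adjusted p = 0.0222), beside 2.68% of all genes tested that were lower. Olig3 was 3.12-fold higher in KO cells (1.64 ± 0.22, adjusted p = 0.000773), beside 1.39% that were higher. Pax6 differed by 0.20 ± 0.63 (adjusted p = 0.939), with a 95% interval of -1.20 to 1.60. In control cells the KO minus WT differences were -0.26 ± 0.29 for Irx3, 0.09 ± 0.18 for Olig3 and 0.03 ± 0.51 for Pax6, and after 8 h of RA they were -0.05 ± 0.29, 0.00 ± 0.18 and 0.40 ± 0.51. None of these 6 passed the test, with unadjusted p of 0.391 or more, beside 4.64% of genes called in controls and 4.61% at 8 h.

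**Figure D3:**
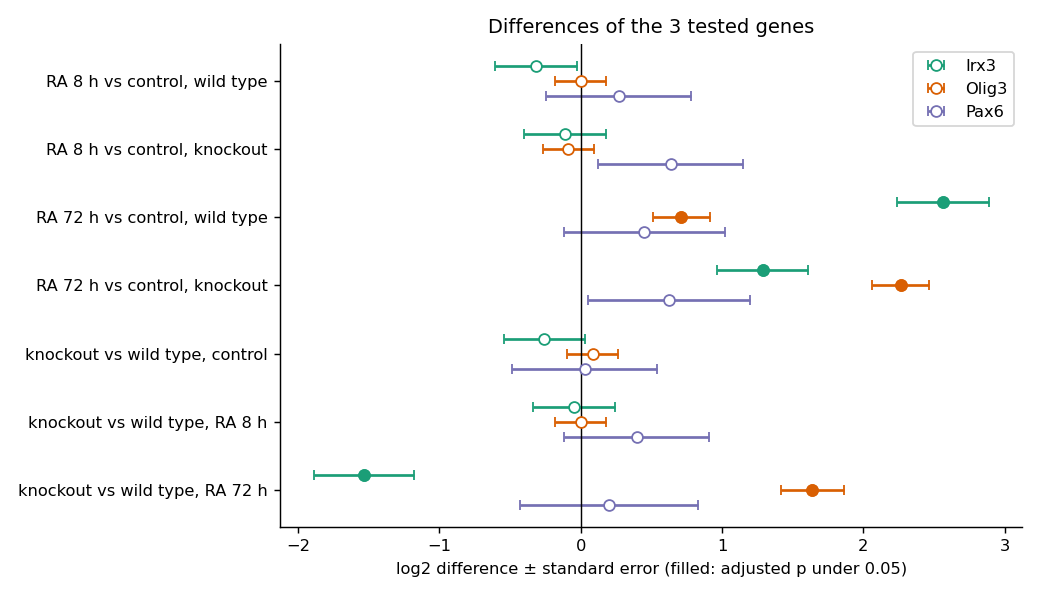
Log2 differences (x axis, with standard error) of Irx3, Olig3 and Pax6 in 7 comparisons, filled where the limma adjusted p was under 0.05. At 72 h KO minus WT is -1.53 for Irx3 and 1.64 for Olig3, and the 8 h and control rows hold no filled point.

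The Irx3 call between genotypes was lost under 5 of 27 alternatives. It was not reached with log2(signal + 32) in place of the floor (-1.34, adjusted p = 0.0915), with quantile normalization (-1.45, adjusted p = 0.0503), without replicate 2 of the KO 72 h group (adjusted p = 0.235) or without either WT array at 72 h (adjusted p = 0.142 and 0.163). For Olig3 it was lost only with log2(signal + 32), among the 25 alternatives in which the gene was tested (1.33, adjusted p = 0.109). Without either KO array at 72 h Olig3 fell below the filter, so those fits could not cost it the call. The firmness of the Irx3 and Olig3 calls is therefore not ranked.

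Whether the response to 72 h of RA itself differed between genotypes was tested as an interaction. For Olig3 the KO response was 1.55 ± 0.29 above the WT response on floored log2 values (limma adjusted p = 0.0299), in a comparison that called 0.342% of genes. Olig3 was among the genes tested only because both KO arrays at 72 h, where it was high, passed 100 units, so this p is a description and not evidence for the gene. With no filter on dim genes the adjusted p was 2.94e-06, from a fit in which most Olig3 arrays sit at the floor and carry no spread. Only 3 of all 11388 genes, 0.0263%, had a positive interaction past the threshold. The value ranged from 1.31 to 1.68 over 25 alternatives, and 13 of these left it above the threshold, among them the fit without the replicate-1 controls, log2(signal + 32) and 9 of the 14 fits without 1 array. With the replicate block the adjusted p was 0.0495. For Irx3 the interaction was -1.27 ± 0.46 (95% interval -2.29 to -0.26, adjusted p = 0.561), past the threshold only with a floor of 100 units (-1.52, adjusted p = 0.00106). The smaller Irx3 rise in KO cells is thus a pair of separate values and not a difference past the threshold.

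Irx3 lies on chromosome 8, where many genes read lower in KO cells under every condition. The 20 tested genes nearest to it in gene order, from Adcy7 to Mt1, had a median KO minus WT difference of -0.32 in controls, -0.39 at 8 h and -0.48 at 72 h. At 72 h 18 of the 20 were below 0, ranging from -1.09 to 0.22, and 0 of them was as low as Irx3, which stood -1.05 from their median. In controls 11 and at 8 h 15 of the 20 read lower than Irx3. How far the neighbourhood's shift enters the Irx3 difference was not tested. Irx5, another Iroquois gene, was too dim to be tested and read 92.24 ± 6.76 units in WT (SD, n = 2) and 32.6 ± 5.78 units in KO cells (n = 2) at 72 h. Olig3 lies on chromosome 10, where its 20 nearest tested genes, from Adgrg6 to Sgk1, had a median of -0.08 at 72 h and ranged from -1.01 to 0.62.

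**Figure D4:**
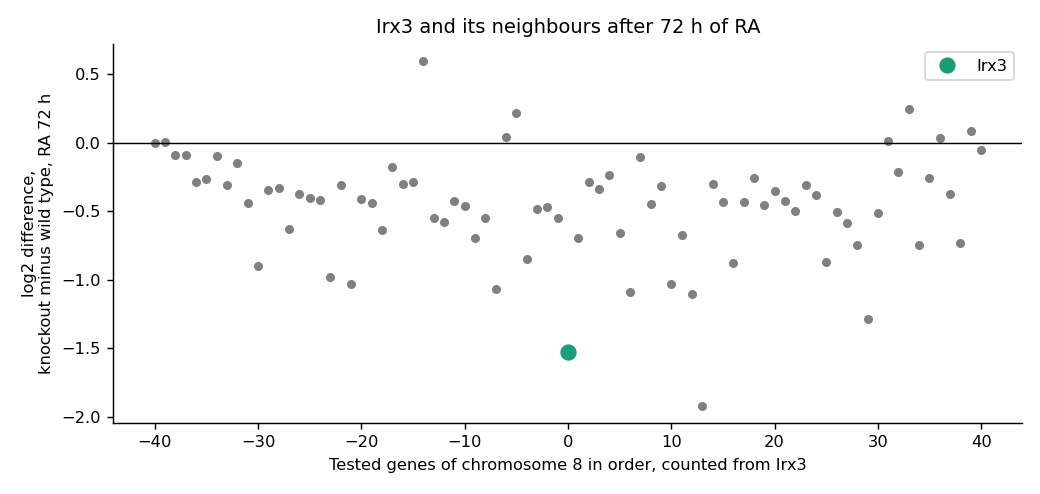
KO minus WT log2 difference after 72 h of RA (y axis) for tested genes of chromosome 8 in gene order, counted from Irx3 (x axis). Irx3, in green, is at -1.53, below each of the 20 nearest genes, whose median is -0.48, and 1 gene farther off is lower still.

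The genes whose signal followed each member most closely were found by Pearson correlation of log2 values over the 18 arrays among 11419 genes. These are descriptions, since the arrays share treatments and only a few 72 h arrays carry the pattern. Closest to Irx3 were Wls, which carries Wnt proteins to the cell surface, the tropomyosin gene Tpm2 and Gpx8, a peroxidase of the endoplasmic reticulum, each with r = 0.97. Wls had a mean of 836.5 units in WT and 152.2 in KO cells at 72 h, and 71.54 and 59.35 in the controls. Closest to Olig3 were H2-Ab1, an MHC class II chain (0.96), Islr (0.95) and Car6, a secreted carbonic anhydrase (0.94). These read higher in KO than in WT cells at 72 h, with means of 105.1 and 74.38 units for H2-Ab1 and 145 and 61.58 for Islr. Closest to Pax6 were Zic5 (0.87), Poldip3 (0.86) and Tcf7l1 (0.85), a repressor of Wnt targets. Irx3 and Olig3 correlated at 0.55 with each other and at 0.31 and 0.25 with Pax6.

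Other patterning factors of the tube were about as dim as the 8: of 25 on the array, 8 (32%) were tested. For the counts that follow, 16.1% (WT) and 14.8% (KO) of all genes tested rose at 72 h, and 8.64% and 8.26% fell. Of the 13 ventral and intermediate factors on the array 3 were tested, and at 72 h 2 rose in WT cells and 1 in KO cells. Their median difference was 1.03 in WT and 0.73 in KO cells, where all genes had medians of 0.06 and 0.06. Foxa2, the floor plate and endoderm factor, rose by 2.39 ± 0.26 in WT (limma adjusted p = 1.11e-05) and by at least 1.45 ± 0.26 in KO cells (adjusted p = 0.000981). The rise of the Iroquois gene Irx2 in WT, 1.03 ± 0.32 (adjusted p = 0.0281), was lost with the LIF labels exchanged (adjusted p = 0.128), with quantile normalization (0.0653) and without either WT array at 72 h (0.14 and 0.114), among others. Of the 12 dorsal factors 5 were tested: 2 rose and 1 fell in WT and 1 rose in KO cells. Msx2, a homeobox target of bone morphogenetic proteins, rose by 2.64 ± 0.36 in WT and 1.97 ± 0.36 in KO cells. Msx1 rose in WT (1.40 ± 0.35, adjusted p = 0.00841, but 0.0806 with the LIF labels exchanged and 0.0571 and 0.0664 without either WT 72 h array), and Gbx2, the hindbrain-side factor of the isthmus, fell in WT (-1.15 ± 0.24). Gbx2 was already bright in untreated ES cells, with means of 2604 units in WT and 3145 in KO controls. What its fall reflects was not tested. The dorsal median was 0.53 in WT and -0.03 in KO cells.

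Of 14 tested Hedgehog pathway genes, 5 rose and 2 fell at 72 h in WT cells, and 4 rose and 2 fell in KO cells. Among all genes tested 16.1% (WT) and 14.8% (KO) rose, and 8.64% and 8.26% fell. The medians of the Hedgehog genes were 0.42 and 0.16. Gas1, a coreceptor for Hedgehog ligands, rose by 4.76 ± 0.40 in WT (limma adjusted p = 9.85e-07) and by 3.51 ± 0.40 in KO cells (adjusted p = 1.65e-05). Gli1, a transcriptional target and effector of the pathway, fell by 2.36 on the log2 scale in WT and by 2.10 in KO cells, where the call was lost without replicate 1 of the 72 h group (adjusted p = 0.0712). Gli2, the main activator, fell by 1.40 and 1.39. Hhip, a Hedgehog-binding inhibitor, rose in WT (1.65 ± 0.23) and the coreceptor Boc in KO cells (1.10 ± 0.23). The remaining rises were of Gli3, Cdon and Dhh in WT and of Dhh and Smo in KO cells, named after their values were seen. Shh itself, at 97.7 ± 27 units in WT and 94.99 ± 11.6 units in KO cells (SD, n = 2) at 72 h, did not pass the test in either genotype.

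Of 6 tested dorsal signal genes, 2 rose and 1 fell in WT and 2 rose and 2 fell in KO cells at 72 h. Among all genes tested 16.1% (WT) and 14.8% (KO) rose, and 8.64% and 8.26% fell. Bmp4 fell by 2.15 in WT (limma adjusted p = 3.48e-06) and by 1.55 in KO cells, and Bmp6 rose by 1.82 in WT and by at least 1.53 in KO cells. The rise of Bmp7, by 1.05 in WT (adjusted p = 0.0399) and 1.15 in KO cells (adjusted p = 0.0283), was lost under several settings, with quantile normalization at adjusted p = 0.155 and 0.102. The bone morphogenetic protein and activin binder Fst fell in KO cells (-1.58 ± 0.32, adjusted p = 0.101 with a floor of 100 units). Of 5 tested anterior-posterior genes, Hoxb1 rose by at least 3.34 in WT and at least 2.79 in KO cells, and Hoxb4 by 2.94 and 3.70. Both are hindbrain genes that RA induces. Otx2, of the forebrain and midbrain, fell in KO cells (-2.71 ± 0.74, adjusted p = 0.016). Its KO controls read 1352, 215 and 119.6 units, the first of them on the array whose LIF label Socs3 goes against, and both KO arrays at 72 h lay at the floor. The difference was -1.68 without that control (adjusted p = 0.0331), -1.70 with the LIF labels exchanged and -3.43 without replicate 3 of the KO controls. Its call was lost in 4 of 25 alternatives: without either KO array at 72 h (adjusted p = 0.0876 and 0.0897), with a floor of 100 units (0.0957) and with only the arrays compared (0.065). Pax8 fell as well in KO cells (-1.09 ± 0.31, adjusted p = 0.0195, and 0.0931 and 0.0954 without either KO array at 72 h).

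**Figure D5:**
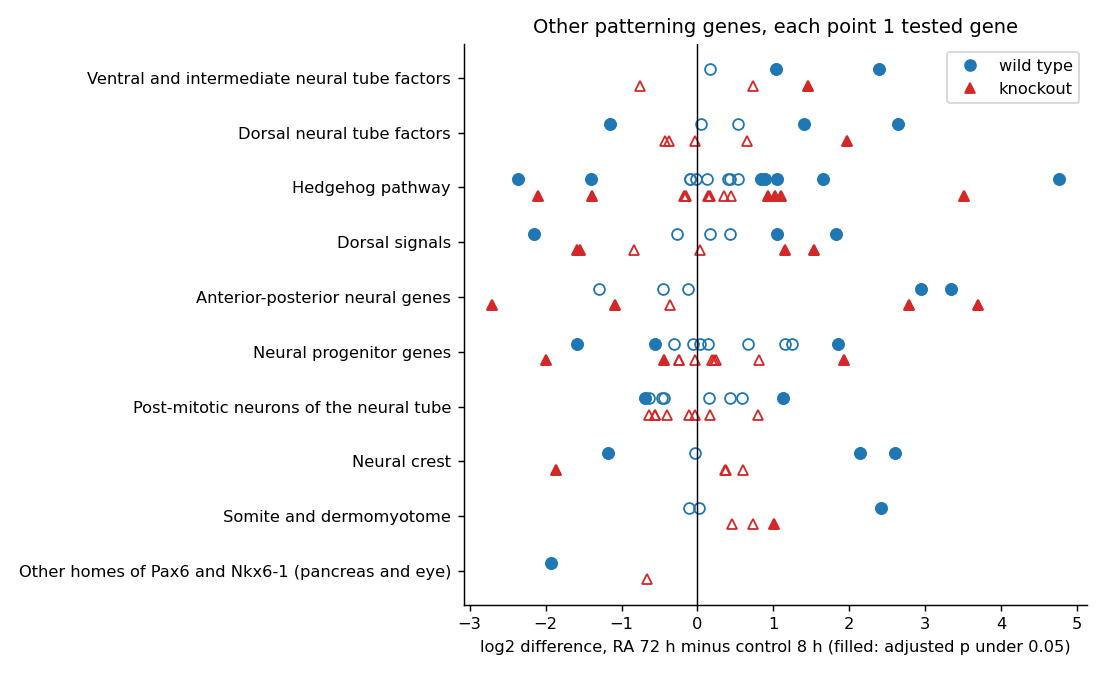
Log2 difference between 72 h of RA and control (x axis) for each tested gene of 10 lists, WT as blue circles and KO as red triangles, filled where the limma adjusted p was under 0.05. Gas1 lies farthest right in WT cells, at 4.76, and Hoxb4 in KO cells, at 3.70, while the lists of Hedgehog genes, dorsal signals and progenitor genes have filled points on both sides of 0.

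Genes of neural progenitors, neurons and the dorsal derivatives of the tube showed no common direction. Of 10 tested progenitor genes 1 rose and 2 fell in each genotype. Among all genes tested 16.1% (WT) and 14.8% (KO) rose, and 8.64% and 8.26% fell. Cdh2, the neural cadherin, rose in WT (1.85 ± 0.31, and 2.49 or 1.21 without either WT array at 72 h) and Sox1, an early neuroectoderm factor, in KO cells (1.93 ± 0.42, limma adjusted p = 0.00406). Pou3f1, a POU factor of the epiblast and neural tissue, fell in both (-1.59 in WT and -2.0 in KO cells), as did Sox2 (-0.55 and -0.45), which ES cells also express. Without replicate 1 of the WT 72 h group Pou3f1 had adjusted p = 0.0504 in WT, and without replicate 2 of the 72 h groups Sox2 had 0.0884 in WT and 0.245 in KO cells. Of 8 tested genes of neurons of the tube, Isl1, of motor neurons, rose in WT (1.13 ± 0.28, adjusted p = 0.0085, and 0.103 without replicate 1 of the WT 72 h group), the pan-neuronal tubulin Tubb3 fell in WT (-0.69 ± 0.22, adjusted p = 0.0294, and 0.0771 and 0.193 without either WT array). Among 4 tested neural crest genes, Ets1 rose by at least 2.61 and Snai2 by 2.13 in WT. Foxd3 fell in both genotypes (-1.18 in WT, a call lost without replicate 2 of the WT 72 h group, and -1.86 in KO cells). It was already expressed in untreated ES cells, with means of 622.6 units in WT and 838 in KO controls. Meox1, a somite factor, rose by at least 2.42 in WT cells, and Tcf15, also of somites, by 1.01 in KO cells (adjusted p = 0.0195, and 0.136 and 0.0715 without either KO array). Neurod1, a factor of pancreas and neurons and the single tested gene of 8 from pancreas and eye, fell in WT (-1.93 ± 0.35).

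At 72 h, of 59 tested genes on these 10 lists, 7 (11.86%) were lower and 1 (1.695%) higher in KO than in WT cells. Among all genes tested 2.68% were lower and 1.39% higher, so lower calls outnumbered higher ones there too. The lists were chosen with earlier results of these data known, so their shares are descriptions and no enrichment was tested. Hhip (-1.62 ± 0.26, limma adjusted p = 0.00196) and Ets1 (-2.23 ± 0.28, adjusted p = 0.000533) were lower in KO cells. They were called under every alternative in which they were tested, 22 for Hhip and 23 for Ets1. Both passed the filter only through the WT arrays at 72 h. Without either of those arrays they were not tested, so those fits could not cost them the call. The losses of the genes that follow therefore do not rank their calls against those of Hhip and Ets1. Gas1 (-1.87), Fst (-2.0), Cdh2 (-1.89), Snai2 (-1.84) and Meox1 (-1.53) were also lower, but each lost its call without at least 1 of the 72 h arrays, at adjusted p of up to 0.306 for Gas1, 0.101 for Fst, 0.106 for Cdh2, 0.187 for Snai2 and 0.312 for Meox1. Gbx2 was the one gene of these lists that was higher in KO cells (1.07 ± 0.26, adjusted p = 0.0291), and not without any single 72 h array, where the adjusted p was between 0.0904 and 0.222. The interaction at 72 h passed the threshold for Ets1 (-2.23 ± 0.36, adjusted p = 0.018), a call that 6 of 23 alternatives lost, among them those without replicate 2 of the KO 72 h group (adjusted p = 0.125), without replicate 2 of the KO controls (0.0527) and without the replicate-1 controls (0.0975). It did not pass for Hhip (adjusted p = 0.0871), Cdh2 (0.218) or Meox1 (0.231). The Ets1 interaction rests on the same filter as its genotype difference, so its p is likewise a description. By direction alone, Irx3 lay with the 7 called genes that were lower in KO cells, and Olig3 with Gbx2 on the other side.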

How the data were processed

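Total RNA of 18 samples was measured on single-colour Affymetrix arrays. The intensity of every probe set on every array was deposited by the authors as linear values from MAS5, per the submitters' processing notes, which name no version. In that table every array had a trimmed mean of 500 (2% off each end). The platform annotation gave 34958 probe sets a single symbol, 932 several and 9211 none, and 34754 matched RefSeq (GRCm38.p6), used for gene order and promoter windows.

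Intensities under 50 were set to 50 and log2 taken. The probe set with the highest mean log2 stood for its gene. Genes needed 100 units on at least 2 arrays. limma 3.58.1 in R 4.3.3 (lmFit, eBayes with intensity trend) fitted 16 arrays of 6 groups with 10 residual degrees of freedom, and 8 control arrays for LIF. Tests are two-sided, with Benjamini-Hochberg adjustment over 11388 genes (10476 for LIF) at 0.05, and only genes past it are said to rise, fall or be called. The fit was tested on simulated data. Arrays hold no count depth, so precision rests on the number of arrays and on signal over background. Arrays of a group differed by a mean of 0.215 to 0.286 on the log2 scale.

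The members and gene lists were chosen with earlier results of these data known. All members were named; of each list, up to 4 called genes with the smallest adjusted p, or else the one with the largest difference; and the 3 genes most correlated with each tested member. A part of these is described. Same-numbered arrays deviated together: in the comparisons with 3 pairs (RA 8 h against control, and genotype in controls and at 8 h) every correlation lay between 0.143 and 0.504, so the numbers pair these arrays, as seen in the data and not stated by the labels. The 72 h comparisons have 2 pairs.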

Additional observations from a re-analysis of the deposited data

Results flagged for a closer look

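The response of Olig3 to 72 h of RA passed the threshold in a test of the difference between genotypes. The KO response was 1.55 ± 0.29 above the WT response on the log2 scale of floored values (limma adjusted p = 0.0299, both KO arrays at 72 h above both WT arrays). The gene was tested only because those KO arrays passed the filter, and 13 of 25 alternatives lost the call, with adjusted p up to 0.927, so a difference of the responses is not shown. No group held enough arrays to look for single outlying arrays.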

How the results depend on the processing

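Counts of members called changed as follows. At 72 h against control in WT cells 2 were called, and 1 with a floor of 100, quantile normalization, a filter of 200 units, only the arrays compared, or the replicate-1 controls left out (1 to 2 without single arrays). In KO cells the count was 2, and 0 to 2 without single arrays. Against 8 h of RA it was 2 in WT, and 1 with a floor of 100, quantile normalization, a filter of 200 units or only the arrays compared (1 to 2 without single arrays), and 2 in KO cells, and 1 with log2(signal + 32) (0 to 2 without single arrays). Between genotypes at 72 h it was 2, 0 with log2(signal + 32) and 1 with quantile normalization (0 to 2 without single arrays). For the interaction at 72 h it was 1, rising to 2 under a floor of 100 and falling to 0 under log2(signal + 32), a filter of 200 units, only the arrays compared or the replicate-1 controls left out (0 to 1 without single arrays). Single differences were counted only where a member was called under at least 1 setting, which held for Irx3 and Olig3 in the 72 h comparisons. Of these recomputed values, 276 kept their direction and side of the threshold, 33 lost the call, 1 gained it and 0 reversed. Pax6 and the 8 h, control and LIF differences are not in these counts. Removing an array of KO cells at 72 h took Olig3 below the filter, which sets its count by construction; the cause of the other changes was not tested. With the replicate number as a block (replicate block) no call of a member changed: the Olig3 interaction had adjusted p = 0.0495 and the Irx3 difference between genotypes at 72 h 0.00927. Of 16 arrays, 15 correlated best with one of their own number. Signal near background limits 5 of the 8 members.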

Other observations

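Chosen after the values were seen: among the controls, Irx3 and Zic2 were highest on the replicate-1 arrays labelled with LIF, whose Socs3 signal was low. Irx3 read 101.1 units there in WT and 77.93 in KO cells, against 28.61 and 65.53 units and 19.11 and 30.13 units on the other control arrays with LIF and 22.13 and 7.305 units on those labelled without it. Zic2 read 79.99 (WT) and 78.21 (KO) units there, against 45.21 and 45.55 units and 22.46 and 35.26 units on the others with LIF and 49.96 and 46.99 units without. With 1 such array per genotype there is no test within a genotype, and a relation to LIF was not tested.

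Zic1 and Irx5 stood higher in WT than in KO cells at 72 h on every array, at signals near the floor. The brighter Zic1 probe set read 46.91 and 59.89 units in WT and 18.04 and 24.03 in KO cells.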
